A study of Mus musculus with 4 samples.

Results

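The miR-290 to miR-295 cluster is a run of microRNA hairpins on mouse chromosome 7, and its genes were taken as the count table rows that map to 9 symbols: Mir290a, Mir291a, Mir292, Mir291b, Mir293, Mir294, Mir295, AU018091 and D7Ertd143e. Of these 9 symbols, 8 had a row among the 43629 genes listed in each library, namely the 7 microRNA genes and AU018091. The long non-coding RNA D7Ertd143e had no identifier in the count table and was not analysed here, nor were Mir290b and Mir292b, which also had none. The data were raw read counts per gene from poly(A) RNA of mouse embryonic stem cells of 129/Ola background, cultured in serum with LIF. The 2 Drosha knockout (KO) libraries came from cells at passage 7, KO1 with the Pro-rich region of Drosha deleted and KO2 with the R/S-rich region deleted, each allele made by a pair of CRISPR/Cas9 cuts and represented by 1 library. The 2 wild-type (WT) libraries came from E14, a standard embryonic stem cell line, at passage 33 (WT1) and passage 42 (WT2), and their titles mark them as re-used. Genotype, passage and library origin change together between the groups, so their effects cannot be told apart. Within a group the libraries differ in allele (KO) or in passage (WT), with 1 library for each. The labels do not say whether they were otherwise cultured independently. The p-values thus reflect spread among these 4 libraries, allele and passage differences included, and not spread among replicates of 1 allele or passage.

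The cluster is transcribed as 1 long primary transcript by RNA polymerase II. In the nucleus DROSHA and its RNA-binding partner DGCR8, together called the Microprocessor, cut each hairpin out of that transcript. DICER1 then trims the hairpin in the cytoplasm, and the mature strand guides an Argonaute protein to messenger RNAs that match its seed. These microRNAs are among the most abundant ones of mouse embryonic stem cells, where they are known to speed the passage from G1 to S phase and to repress genes such as Cdkn1a, Rbl2, Lats2 and Lefty1. Poly(A) RNA sequencing does not capture mature microRNAs, so a count at a hairpin gene comes from longer transcripts over that hairpin.

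The mature sequences show which members share a target specificity, set by the seed (bases 2 to 8, in capitals). They are from RefSeq on GRCm38.p6, the assembly of mm10, and all 7 microRNA genes had an entry, with 13 mature sequences in all. The 3′ arm of Mir292 was not among these and was not compared. The 3′ arms of Mir291a, Mir294 and Mir295 share 1 seed, which also occurs in miR-302b and miR-302d. Those of Mir290a and Mir291b differ from it in the last seed base. The seed of Mir293 is unlike the other 5 shown at this position, though the same bases occur 2 positions further along in the Mir290a arm:
mmu-miR-291a-3p: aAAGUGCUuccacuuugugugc
mmu-miR-294-3p: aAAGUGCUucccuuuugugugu
mmu-miR-295-3p: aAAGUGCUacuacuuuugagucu
mmu-miR-290a-3p: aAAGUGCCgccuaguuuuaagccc
mmu-miR-291b-3p: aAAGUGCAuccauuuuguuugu
mmu-miR-293-3p: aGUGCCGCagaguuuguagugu
The 5′ arms of Mir290a, Mir292 and Mir293 share another seed:
mmu-miR-290a-5p: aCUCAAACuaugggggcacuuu
mmu-miR-292a-5p: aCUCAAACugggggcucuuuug
mmu-miR-293-5p: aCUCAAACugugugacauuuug
Mir302b and Mir302d, genes outside the cluster whose 3′ arms carry the AAGUGCU seed, had no count in any of the 4 libraries, which allows up to 3 counts in each.

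The hairpins of Mir293, Mir294 and Mir295 are the DROSHA substrates at the 3′ end of the cluster, whose genes passed the test described below. They are shown with both mature arms in capitals, and the bases outside the arms include the loop and the stem base where DROSHA cuts. All 3 lie on the plus strand of chromosome 7 (mm10):
Mir293, chr7:3220343-3220422: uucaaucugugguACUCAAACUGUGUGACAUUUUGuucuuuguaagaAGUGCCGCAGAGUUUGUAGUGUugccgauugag
Mir294, chr7:3220641-3220724: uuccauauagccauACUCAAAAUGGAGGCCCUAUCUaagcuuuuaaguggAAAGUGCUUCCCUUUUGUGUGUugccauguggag
Mir295, chr7:3220773-3220841: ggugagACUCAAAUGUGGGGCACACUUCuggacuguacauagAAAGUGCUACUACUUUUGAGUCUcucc

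From the first base of Mir290a to the last of Mir295 the cluster spans 2216 bases, and its hairpins are 69 to 84 bases long. Mir290a (3218626 to 3218708), Mir291a (3218919 to 3219000), Mir292 (3219189 to 3219270) and Mir291b (3219482 to 3219560) form its 5′ part, and 782 bases separate Mir291b from Mir293. RefSeq places D7Ertd143e at 3218784 to 3221015, so 6 of the 7 hairpins lie inside that non-coding RNA and Mir290a lies just before its annotated start. The 300 bases around this start, 250 before it and 50 after it, show the Mir290a hairpin in capitals upstream of the start:
D7Ertd143e start, plus strand, chr7:3218534-3218833: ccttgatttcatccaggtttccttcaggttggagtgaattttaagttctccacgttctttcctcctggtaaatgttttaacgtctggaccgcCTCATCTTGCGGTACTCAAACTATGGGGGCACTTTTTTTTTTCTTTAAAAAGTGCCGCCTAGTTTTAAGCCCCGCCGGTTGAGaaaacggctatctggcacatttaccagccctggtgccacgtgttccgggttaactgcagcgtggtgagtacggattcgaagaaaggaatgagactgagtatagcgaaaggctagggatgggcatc
On the other strand the last annotated exon of the protein-coding gene Nlrp12 (3218784 to 3222560) covers the same 6 hairpins. Nlrp12 itself had 23 counts (KO1) and 26 counts (KO2), against 24 counts (WT1) and 13 counts (WT2). AU018091 (3154658 to 3169203), annotated as protein-coding on the minus strand, has its 5′ end 49422 bases from Mir290a and does not lie over the cluster. It is described here as an expressed neighbour.

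Library totals ran from 29264632 to 42322129 counts. Levels are CPM (counts scaled to a common library size) after TMM scaling, a correction for differences in library make-up. The chi-square per degree of freedom between libraries of a pair, taken over genes whose counts in that pair reached 50, was 2.26 for the knockouts and 167 for the wild types, so the wild types differed far more from each other. Drosha itself, which checks the labels, had 158 CPM (KO1) and 158 CPM (KO2), against 364 CPM (WT1) and 357 CPM (WT2). Counts per gene do not resolve the deleted regions. The embryonic stem cell markers Pou5f1, Sox2, Nanog, Zfp42 and Dppa5a were expressed in all 4 libraries, with summed levels of 4869 CPM (KO1) and 4956 CPM (KO2), against 4045 CPM (WT1) and 4371 CPM (WT2). Dppa5a was the largest part of that sum, averaging 2237 CPM for KO, against 1656 CPM for WT. By mean CPM Pou5f1 was also higher in KO, and Sox2, Nanog and Zfp42 were lower.

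Reads over the cluster were several times more frequent in knockout than in wild-type cells, at each of the 7 hairpins. Summed over the 7 microRNA genes, the level was 147 CPM (KO1) and 142 CPM (KO2), against 28.8 CPM (WT1) and 14.3 CPM (WT2). The knockout libraries were close to each other, the ratio of WT2 over WT1 was 0.496 (0.446 to 0.551), and the groups did not overlap. The means were 145 ± 3.16 CPM for KO, against 21.6 ± 10.3 CPM for WT (SD, n = 2 each), a 6.70-fold difference. Against WT1 alone the summed counts of both knockouts were 5.0-fold higher (4.71 to 5.32), and against WT2 alone 10.1-fold higher (9.23 to 11.03). Intervals are 95% exact binomial ones and cover counting error only. In bulk RNA, more cells that make a transcript and more of it per cell cannot be told apart.

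**Figure D1:**
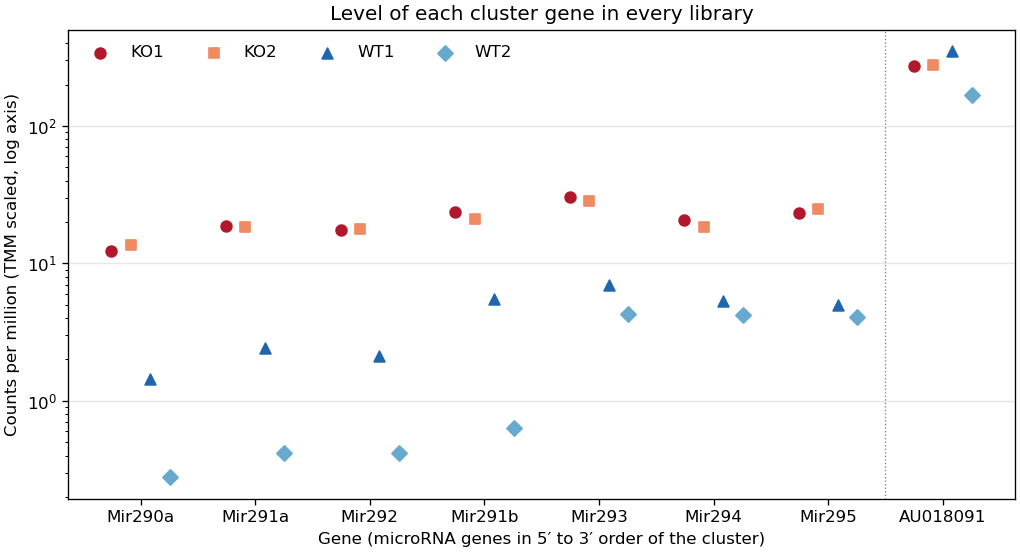
CPM (TMM scaled, log axis) of the 7 microRNA genes in 5′ to 3′ order and of AU018091, with 1 point per library. At every microRNA gene both KO points lie above both WT points, WT2 lies far below WT1 from Mir290a to Mir291b, and AU018091 in the KO libraries lies between WT1 and WT2.

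Mir293, Mir294 and Mir295, the hairpins of the 3′ part, rose past the threshold. Mir293 had 30.3 CPM (KO1) and 28.4 CPM (KO2), against 6.99 CPM (WT1) and 4.28 CPM (WT2). Its lowest knockout library was 4.07-fold above its highest wild-type library, and the log2 fold change of KO over WT was 2.38 ± 0.29 (SE). Mir294, which carries the shared AAGUGCU seed, had 20.8 CPM (KO1) and 18.3 CPM (KO2), against 5.31 CPM (WT1) and 4.22 CPM (WT2). Both knockouts were again above both wild types, and the log2 fold change was 2.03 ± 0.21. Mir295, which carries the same seed, had 23.4 CPM (KO1) and 24.9 CPM (KO2), against 4.98 CPM (WT1) and 4.05 CPM (WT2). The gap between the groups was 4.69-fold, and the log2 fold change was 2.42 ± 0.19. In edgeR's quasi-likelihood test, with p-values adjusted by Benjamini-Hochberg across the 17022 genes tested, each of these genes had an adjusted p of 0.0482. That was the smallest value any gene reached, so these calls lie close to the threshold of 0.05.

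The 4 hairpins of the 5′ part had larger fitted fold changes and did not pass; the difference from the 3′ part was not tested. Mir290a, which gives its name to the cluster, had 12.4 CPM (KO1) and 13.5 CPM (KO2), against 1.45 CPM (WT1) and 0.278 CPM (WT2). The level in WT2 rests on 10 counts. Its log2 fold change was 3.89 ± 0.78 (edgeR adjusted p = 0.0579). Mir291a, the first hairpin with the AAGUGCU seed, had 18.7 CPM (KO1) and 18.5 CPM (KO2), against 2.43 CPM (WT1) and 0.417 CPM (WT2). The wild types differed by more than the knockouts did, and the log2 fold change was 3.69 ± 0.83 (edgeR adjusted p = 0.0655). Mir292 had 17.6 CPM (KO1) and 17.6 CPM (KO2), against 2.13 CPM (WT1) and 0.417 CPM (WT2). Its groups were 8.28-fold apart at their nearest libraries, and KO over WT was 3.78 ± 0.78 in log2 (edgeR adjusted p = 0.0600). Mir291b had 23.6 CPM (KO1) and 21.1 CPM (KO2), against 5.54 CPM (WT1) and 0.639 CPM (WT2). It had the largest spread between the wild types and the largest standard error, and KO over WT was 2.85 ± 0.99 in log2 (edgeR adjusted p = 0.123).

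Counted over the cluster, 3 of the 8 genes were called higher and 0 lower, where 3.51% of all genes tested were called higher and 1.94% lower (5.45% in all). At an unadjusted p under 0.05 all 7 microRNA genes passed, as did 6320 of the 17022 genes, and DESeq2 called all 7 higher, where it called 12.3% of its genes higher and 10.2% lower (22.5% in all). All 7 microRNA genes passed the filter on low counts, and so did AU018091. In 7 of the 8 the knockout libraries both lay above the wild types, a pattern found in 36.5% of all genes tested, with the opposite one in 34.8%. The median log2 fold change was 2.85 over the 7 microRNA genes and -0.02 over all genes tested. With scaling by library totals alone the median of all genes moved to 0.13, and over the 4 scalings run in edgeR the log2 fold changes of the 7 genes ran from 2.01 to 3.999. The calls of Mir293, Mir294 and Mir295 were lost when either knockout library was left out (edgeR adjusted p from 0.0888 to 0.267), when the knockouts were summed and counted as 1 sample, and with upper-quartile scaling, library totals or GC and length trends removed. They passed in DESeq2 and in edgeR without the low-count filter, which called 6 of the 8 genes and 6.09% of all genes higher and 3.99% lower (10.1% in all). With the replicate number as a block 7 of the 8 were called, where 7.95% of all genes were called higher and 3.38% lower (11.3% in all). Without WT1 all 8 were called, AU018091 included, where 39.6% of all genes were called higher and 38.1% lower (77.7% in all). Without WT2 all 8 were called, AU018091 as lower, where 34.8% were called higher and 33.3% lower (68.0% in all). In the last 2 fits the spread comes from the knockout pair alone. With all libraries edgeR called 927 genes, against 0 without KO1 and 22 without KO2 (1760 and 2020 at an unadjusted p under 0.05), so calls of other genes given here are also lost without KO1.

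The fold over wild type was not even along the cluster, and it depended on which wild-type library was used. Over WT1, both knockouts together were 8.995-fold higher at Mir290a (6.90 to 11.9), 7.64-fold at Mir291a (6.22 to 9.49) and 8.29-fold at Mir292 (6.65 to 10.4). At Mir291b the fold over WT1 was 3.99 (3.47 to 4.62), and at Mir293, Mir294 and Mir295 it was 4.18, 3.64 and 4.87. Thus over WT1 the step fell between Mir292 and Mir291b, and the intervals on its sides did not overlap. Over WT2 the first 4 hairpins were 47.1-fold (25.5 to 98.4), 44.6-fold (26.9 to 79.9), 42.4-fold (25.6 to 75.9) and 34.6-fold (23.0 to 54.8) higher in 5′ to 3′ order. Mir293, Mir294 and Mir295 were 6.83-fold (5.80 to 8.09), 4.58-fold (3.87 to 5.45) and 5.98-fold (5.05 to 7.13) higher than in WT2. Over WT2 the step therefore fell within the gap between Mir291b and Mir293.

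**Figure D2:**
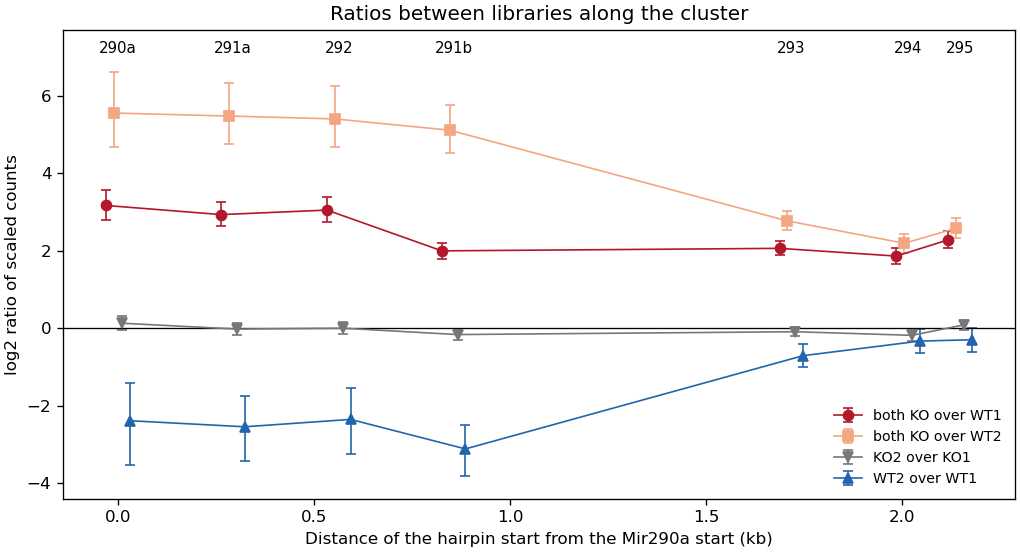
Log2 ratios of scaled counts between libraries at each hairpin, by distance from the Mir290a start in kb, with 95% exact counting intervals as bars. KO2 over KO1 stays near 0, WT2 over WT1 lies at -2.35 or lower at the first 4 hairpins and at -0.71 or higher at the last 3, and both KO ratios are highest at the 5′ end.

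The wild-type libraries differed mainly in the 5′ part. WT2 over WT1 was 0.191 at Mir290a (0.0871 to 0.377), 0.171 at Mir291a (0.0924 to 0.297), 0.196 at Mir292 (0.105 to 0.341) and 0.115 at Mir291b (0.0716 to 0.178). At Mir293 it was 0.612 (0.499 to 0.748), at Mir294 0.795 (0.641 to 0.984) and at Mir295 0.813 (0.652 to 1.01). The knockout libraries had no such gradient. KO2 over KO1 ran from 0.881 at Mir294 (0.793 to 0.979) to 1.09 at Mir290a (0.961 to 1.25), and the interval left out 1 at Mir291b and Mir294.

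Put as shares, the 4 hairpins from Mir290a to Mir291b took 49.3% of the cluster's counts in KO1 (47.8 to 50.7) and 49.7% in KO2 (48.4 to 50.9), against 40.1% in WT1 (37.2 to 42.9) and 12.2% in WT2 (9.53 to 15.4). The knockouts had nearly the same share and WT2 stood apart from all other libraries, with WT1 in between. The split at the gap was chosen after these values were seen, so it was given no test. In CPM the 5′ part had 71.5 ± 1.14 in the knockouts and 6.65 ± 6.93 in the wild types (SD, n = 2 each). The 3′ part had 73.0 ± 2.01 CPM for KO, against 14.9 ± 3.35 CPM for WT (SD, n = 2 each). In both parts the wild-type SD was small beside the difference between the groups. Against the wild-type mean, that SD was smaller in the 3′ part and slightly larger in the 5′ part.

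**Figure D3:**
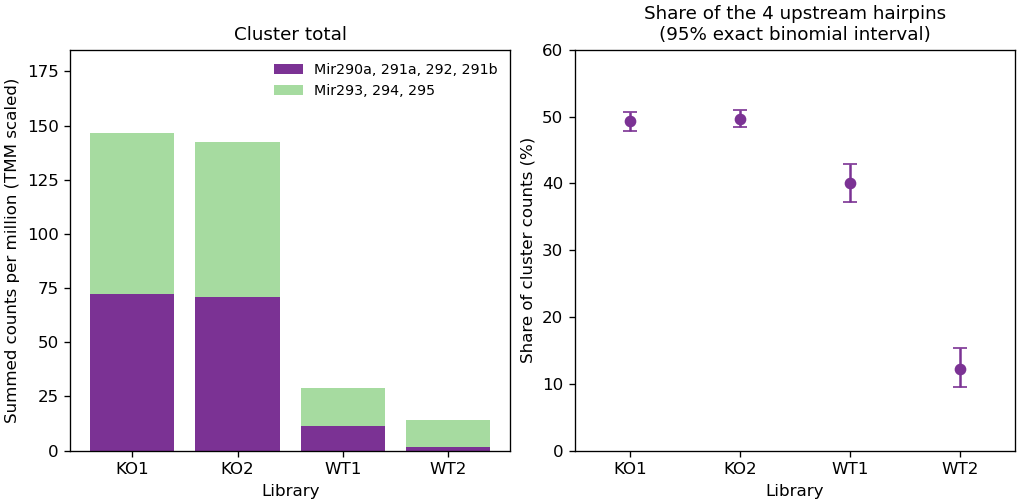
Left, summed CPM (TMM scaled) of the 4 upstream and 3 downstream hairpins in each library; right, the share of cluster counts at the 4 upstream hairpins in percent, with 95% exact binomial intervals. The shares are near 49.3% and 49.7% in KO1 and KO2, and in WT2 the upstream share is 12.2%.

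Per kilobase of hairpin, Mir293 had the highest level in KO1 (378 CPM per kb) and in WT1 (87.4 CPM per kb). In KO2 Mir295 (360 CPM per kb) and Mir293 (356 CPM per kb) were at nearly the same level, and in WT2 Mir295 was highest (58.8 CPM per kb). Mir295 has the shortest hairpin (69 bases). Before division by length Mir293 was above it, at 28.4 against 24.9 CPM in KO2 and 4.28 against 4.05 CPM in WT2. Mir290a was lowest in all 4 libraries, at 149 and 163 CPM per kb in KO1 and KO2, and 17.5 and 3.35 CPM per kb in WT1 and WT2. In WT2 the order falls into 2 separate sets, since the 3′ hairpins had 50.3 to 58.8 CPM per kb and the 5′ hairpins 3.35 to 8.09 CPM per kb. Read length is not given in the sources used here, and a read longer than a hairpin also covers flanking transcript. Hairpin length may therefore not be the right divisor, and small differences in this order are uncertain.

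AU018091, the expressed neighbour, did not follow the cluster. It had 271 CPM (KO1) and 276 CPM (KO2), against 349 CPM (WT1) and 167 CPM (WT2). The knockouts lay between the wild types, and the log2 fold change of 0.08 ± 0.38 did not pass (edgeR adjusted p = 0.886). Its direction depended on the wild-type library: the log2 fold change was 0.71 ± 0.04 without WT1 and -0.34 ± 0.04 without WT2.

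The other genes around the cluster showed no rise of that size. Within 250 kb on either side, 9 counted genes were not members, and 2 of them (Gm3104 and Gm23450) had no count in any library. Of the 7 tested ones 0 were called in edgeR, where 5.45% of all genes tested were called. The log2 fold changes of these 7 ran from -0.33 for Myadm, a membrane protein gene, to 1.25 for Cacng8, a calcium channel subunit gene. Among the genes named here, Myadm and Cacng8 had an unadjusted p under 0.05 in edgeR, as did 6320 of the 17022 genes tested. Myadm was at 111 CPM (KO1) and 109.6 CPM (KO2), against 142 CPM (WT1) and 135 CPM (WT2). Cacng7 was at 40.0 CPM (KO1) and 38.1 CPM (KO2), against 35.0 CPM (WT1) and 37.4 CPM (WT2). The lower level of WT2 than of WT1 was shared by the genes on the 5′ side, with log2 ratios of WT2 over WT1 of -1.63 at the pseudogene Gm7353 and -1.06 at AU018091. Nlrp12, on the other strand of the cluster, was at -0.64. On the 3′ side the ratios were -0.07 at Myadm, 0.10 at Cacng7, 0.29 at Cacng8 and 1.24 at Cacng6.

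**Figure D4:**
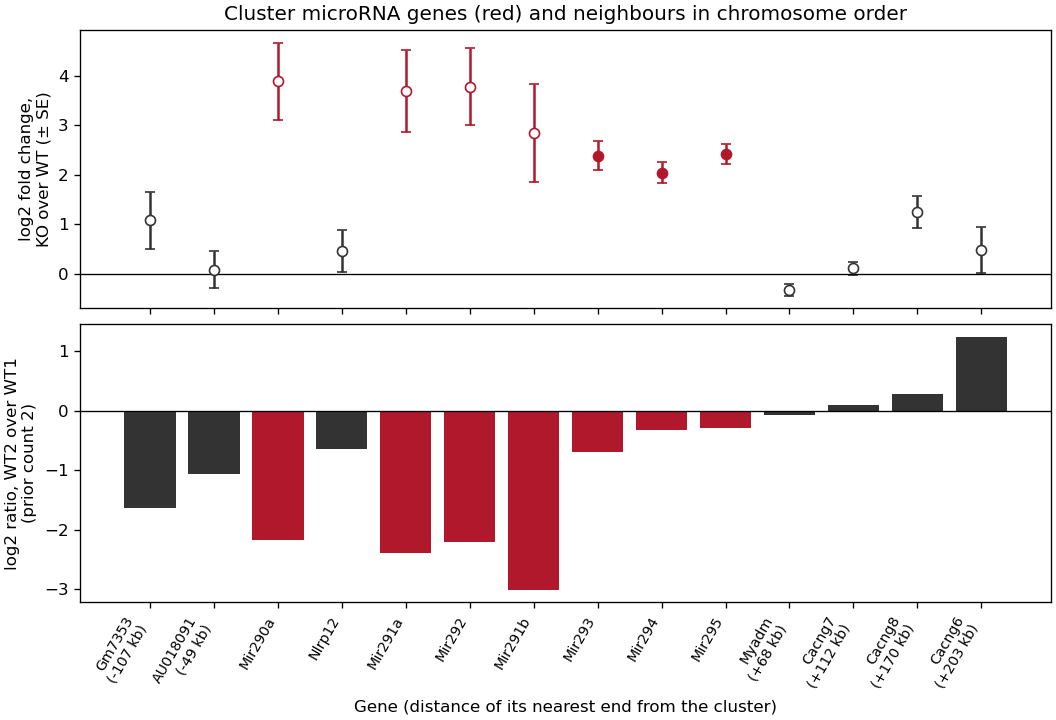
MicroRNA genes of the cluster (red) and other tested genes within 250 kb (dark) in chromosome order: top, log2 fold change of KO over WT with its SE, filled where the edgeR adjusted p is under 0.05; bottom, log2 ratio of WT2 over WT1 with a prior count of 2. The 7 microRNA genes lie at 2.03 or higher in the top panel and every other plotted gene at 1.25 or lower. In the bottom panel the 7 microRNA genes, Gm7353, AU018091, Nlrp12 and, slightly, Myadm lie below 0.

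Among the other annotated microRNA genes, more were higher than lower. Of 1887 listed besides the cluster, 64 passed the filter on low counts, and edgeR called 18 of these higher and 0 lower, where 3.51% of all genes tested were called higher. The log2 fold change was above 0 in 52 of the 64, and the lowest was -2.22 ± 0.58, for Mir1957a (edgeR adjusted p = 0.0791). Without KO2 edgeR called 2 of them. At the median their log2 fold change was 2.37, or 2.20 with the 11 genes without a wild-type count set to the bound that 3 counts per library give, beside 2.85 for the cluster's 7. The filter keeps low genes mainly where 1 group is high, so these counts describe the genes that passed. The cluster held 53.7% (KO1) and 51.7% (KO2) of the CPM of all microRNA genes, against 32.3% (WT1) and 20.7% (WT2). By mean knockout level Mir293, Mir295 and Mir291b ranked 1, 2 and 3 of the 71 tested microRNA genes, and by log2 fold change the 7 ranked between 24 and 43. No test of the cluster against the other microRNA genes was made.

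The Microprocessor and its partners gave a mixed picture. In the list of 14 machinery genes, 1 rose (Dgcr8), 1 fell (Drosha) and the other 12 did not pass. Over all genes tested, edgeR called 3.51% higher and 1.94% lower. Dgcr8, whose messenger RNA is itself cut by the Microprocessor, had 227 CPM (KO1) and 233 CPM (KO2), against 100 CPM (WT1) and 114 CPM (WT2) (log2 fold change 1.10 ± 0.13). Drosha was at -1.19 ± 0.11 (log2 fold change), and both had an edgeR adjusted p of 0.0482. The median of the list was -0.42, beside -0.02 for all genes tested.

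Among 9 transcription factors known to bind the cluster's promoter or to act on it in embryonic stem cells, 1 rose and 0 fell. Of all genes tested, 3.51% were called higher and 1.94% lower. Mycn had 155 CPM (KO1) and 147 CPM (KO2), against 76.3 CPM (WT1) and 60.3 CPM (WT2), 1.14 ± 0.16 higher in log2 (edgeR adjusted p = 0.0482). Both knockouts lay above both wild types. Pou5f1, which encodes OCT4, differed by 0.71 ± 0.26 in log2 (edgeR adjusted p = 0.135), Nanog by -0.45 ± 0.14 (adjusted p = 0.0990) and Sox2 by -0.05 ± 0.36 (adjusted p = 0.926). Klf4 had the lowest value of the list, -1.22 ± 0.62 in log2 (edgeR adjusted p = 0.226). It had 150.9 CPM (KO1) and 143.5 CPM (KO2), against 151.4 CPM (WT1) and 535 CPM (WT2). The list's median was 0.03.

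Of 14 known targets of these microRNAs 13 were tested, 1 rose and 0 fell, and the median was -0.28. Beside this, 3.51% of all genes tested were called higher and 1.94% lower. Lefty1, an inhibitor of NODAL signalling, had 114 CPM (KO1) and 109 CPM (KO2), against 6.31 CPM (WT1) and 14.97 CPM (WT2) (log2 fold change 3.39 ± 0.47, edgeR adjusted p = 0.0482). The other targets ranged from -2.45 ± 0.67 for Dkk1, a WNT inhibitor, to 1.23 ± 0.65 for Lefty2, and neither passed (edgeR adjusted p = 0.0850 and 0.239). Cdkn1a, the inhibitor of G1 kinases, had 69.6 CPM (KO1) and 69.6 CPM (KO2), against 56.0 CPM (WT1) and 45.9 CPM (WT2) (log2 fold change 0.45 ± 0.15, edgeR adjusted p = 0.117).

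Markers of other cell types moved between the same groups. The counts of markers called stand beside 3.51% of all genes tested called higher and 1.94% called lower. Of 7 endoderm markers 6 were tested and 2 fell (Cubn and Lama1). The 7 had summed levels of 50.3 CPM (KO1) and 49.4 CPM (KO2), against 193 CPM (WT1) and 337 CPM (WT2). None of the 7 was at 0 in any library. Of 6 trophoblast markers, a lineage that also makes this cluster, 3 were tested and 1 rose (Tfap2c). The 6 had summed levels of 89.0 CPM (KO1) and 87.9 CPM (KO2), against 43.0 CPM (WT1) and 48.4 CPM (WT2). Tfap2c made up most of that sum, with 84.7 CPM (KO1) and 83.4 CPM (KO2), against 37.8 CPM (WT1) and 41.4 CPM (WT2). Eomes averaged 3.28 ± 0.371 CPM for KO, against 5.13 ± 2.37 CPM for WT (SD, n = 2 each), and did not pass (edgeR adjusted p = 0.301). The defining trophoblast genes Cdx2, Elf5 and Gata3 were at 0.225 CPM or lower in every library except Elf5 in WT1, at 0.701 CPM. Of 7 fibroblast and feeder markers 5 were tested and 0 were called in edgeR. At an unadjusted p under 0.05 in edgeR 3 passed (Col3a1, Dcn and Thy1), as did 6320 of the 17022 genes tested. The 7 had summed levels of 48.6 CPM (KO1) and 44.8 CPM (KO2), against 33.04 CPM (WT1) and 26.5 CPM (WT2). Thy1 made up most of that sum, with 40.8 CPM (KO1) and 41.5 CPM (KO2), against 31.5 CPM (WT1) and 25.9 CPM (WT2). Dcn, Lum and Postn had no count in either wild-type library. The part of these differences in the cluster's values was not tested.

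The genes whose levels over the 4 libraries were most like the summed cluster were Gm10320, Adad2, Rpl36-ps3, Plk5 and Gm10260, in that order. Likeness was the Euclidean distance between centred log2 CPM values over 4 libraries, and it ran from 0.0488 for Gm10320 to 0.164 for Gm10260, beside 0.470 for Mir293 and 2.65 for AU018091. The 5 were picked as the nearest of all genes outside the cluster that passed the filter. Their distances are thus small by selection and are not comparable with those of members. Gm10320 had 7.52 CPM (KO1) and 7.55 CPM (KO2), against 1.48 CPM (WT1) and 0.722 CPM (WT2). Adad2 had 12.8 CPM (KO1) and 11.4 CPM (KO2), against 2.28 CPM (WT1) and 1.14 CPM (WT2). None of the 5 lies on chromosome 7.

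**Figure D5:**
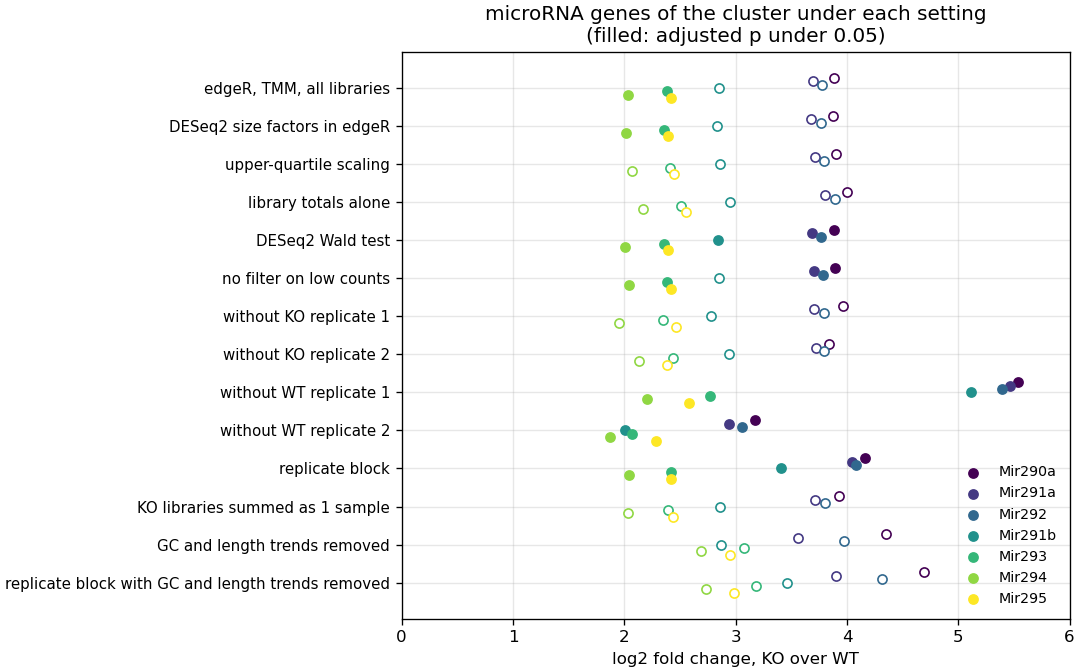
Log2 fold change of KO over WT for the 7 microRNA genes (colours) under each processing setting (rows), filled where the adjusted p is under 0.05. All values lie above 0, the 5′ hairpins move most when a WT library is left out, and Mir293, Mir294 and Mir295 stay between 1.88 and 3.18.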

How the data were processed

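The authors deposited unnormalised read counts by Ensembl gene identifier for 4 libraries. Per the submitters' processing notes the authors used STAR 2.4.2a, featureCounts 1.4.5-p1 and build mm10, and per the labels' protocols libraries were TruSeq, described as reverse-stranded. Annotation release and counting options for strand, overlaps and reads with several matches are not given in the sources used here. They decide how reads over hairpins are split with D7Ertd143e and Nlrp12, so those counts are uncertain.

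Symbols came from a gene name table, which named 42462 of 43629 identifiers, and coordinates from GENCODE M21 (mm10). The main test was that of edgeR 4.0.16 (R 4.3.3): TMM scaling, default expression filter with groups (minimum count 10, minimum total 15), quasi-likelihood fit of group alone, Benjamini-Hochberg adjustment over all genes, threshold 0.05. DESeq2 1.42.0, other scalings, no filter, a replicate block, left-out libraries, summed knockouts and removal of GC and length trends (lowess, span 0.3) were alternatives. One count was worth 0.0236 to 0.0342 CPM before scaling. Python 3.11.15 with scipy 1.17.1 gave intervals and plots. The recovery of known changes by the edgeR fit was checked on simulated data.

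Members and lists were chosen with earlier results of these data known. Named genes were all members, Drosha and Dgcr8, list members past the threshold or else the one with the smallest p, the nearest neighbours, and the 5 genes most like the cluster. Pou5f1, Nanog, Sox2, Klf4, Cdkn1a, Dkk1, Lefty2, Cacng8, Mir1957a and the marker genes were named after their values were seen. One neighbouring gene is not reported here.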

Additional observations from a re-analysis of the deposited data

How the results depend on the processing

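The 7 microRNA genes kept a log2 fold change above 0 under all 13 alternatives, and AU018091 was at 0.71 without WT1 and turned to -0.34 without WT2, against 0.08 with all libraries. The number of the 8 cluster genes called (3) was 3 with DESeq2 size factors in edgeR, 6 without the low-count filter, 7 in DESeq2 and 7 with the replicate block. It was 0 with upper-quartile scaling, library totals alone, the knockouts summed as 1 sample, GC and length trends removed, or those trends removed in the fit with the replicate block, where 7, 7, 7, 6 and 7 had an unadjusted p under 0.05 in edgeR. Left-out libraries gave 0 to 8. All genes called (927) numbered 3747 in DESeq2, 2663 without the filter, 1929 with the replicate block, 0 under the same 5 settings (6267, 6116, 1888, 4269 and 3191 at an unadjusted p under 0.05), and 0 to 13658 with a library left out (0 without KO1, 22 without KO2, 13658 without WT1 and 12089 without WT2; 1760 and 2020 at an unadjusted p under 0.05 in edgeR without KO1 and without KO2). Under those 5 settings 0 genes of each list were called as well. Machinery calls (2) numbered 4 in DESeq2 and 0 to 13 with a library left out, promoter factor calls (1) 0 to 8, and target calls (1) 4 in DESeq2, 4 without the filter, 3 with the replicate block and 0 to 12. Calls of other microRNA genes (18) numbered 31 in DESeq2, 32 without the filter, 31 with the block and 0 to 64. The log2 ratio of summed CPM, 2.74, was 3.91 with the 6 hairpins inside D7Ertd143e left out, which leaves Mir290a alone, and 2.33 to 3.34 without a library. Deviations of same-numbered libraries were nearly uncorrelated (correlation 0.0461 across 17022 genes). The knockouts differed little beyond counting noise (chi-square per degree of freedom 2.26), so this cannot decide whether the numbers pair the libraries. The reasons for these changes were not tested, except that without a wild-type library the spread comes from the knockout pair. Depth limits the 5′ hairpins in WT2, at 10 to 23 counts each.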
